A study of Mus musculus with 18 samples.

Results

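Rora, Ahr, Kit, Icos, Il23r, Il1r1, Il1rl1, Tmem176a and Tmem176b are 9 genes associated with, but not limited to, type 2 and type 3 innate lymphoid cells (ILC2s and ILC3s). Their levels were read in sorted type 1 innate lymphoid cells (ILC1s) and natural killer (NK) cells of mice with and without RARα403, a shortened form of retinoic acid receptor α that blocks the normal receptor. The genes were chosen by symbol, and each matched 1 of the 46078 genes in the count table. All 9 passed the filter on low counts that left 14714 genes for testing. The question was whether type 2 or type 3 features appear in ILC1s that carry RARα403. The measurements come from 18 bulk SMART-seq libraries of 200 sorted cells each, in 6 groups of 3 libraries, from C57BL/6 mice 8 weeks old. Liver ILC1s, spleen ILC1s and liver NK cells were each taken from mice with Ncr1-Cre and Rosa26-RARα403 (called RARa403) and from mice with Ncr1-Cre alone (called control). Every library, controls included, therefore carried Ncr1-Cre, which makes Cre recombinase under the gene of the receptor NKp46 and so acts in cells that have made NKp46. ILC1s were sorted as CD3-negative cells with NK1.1, NKp46, CD49a, IL-7R (the interleukin-7 receptor) and little CD49b, and NK cells as CD3-negative cells with NK1.1, NKp46 and CD49b but no CD49a. Cells without NK1.1 or NKp46, as most ILC2s are, were not collected.

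Innate lymphoid cells are lymphocytes without rearranged antigen receptors that settle in tissues. ILC1s make interferon-γ, ILC2s make interleukin-5 and interleukin-13 under the transcription factor GATA3, and ILC3s make interleukin-22 and interleukin-17. The boundaries are not strict, and in mice some ILC3s that carry NKp46 can take on ILC1 features. RORα (Rora) is a nuclear receptor needed for ILC2 development and also used by ILC3s. The aryl hydrocarbon receptor (Ahr) is a ligand-activated transcription factor that maintains intestinal ILC3s. Kit is the receptor for stem cell factor and marks progenitors and many ILC3s. ICOS is a costimulatory receptor of ILC2s and T cells. Il23r and Il1r1 encode the receptor chains through which interleukin-23 and interleukin-1 act on ILC3s, and Il1rl1 encodes ST2, the interleukin-33 receptor of ILC2s. Tmem176a and Tmem176b encode related membrane proteins found in ILC3s, some T cells and some macrophages and dendritic cells.

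Libraries held 3452279 to 9038767 counts, so that 3 counts, used here as the floor per library, stood for 0.332 to 0.869 CPM (counts scaled by library size). The animal behind each library is not stated, so p-values measure only the spread between these libraries. Library codes in the labels recur across the 3 populations of a genotype, and they begin with 1 for every replicate 1 and with 2 for replicates 2 and 3. The ILC1 and NK labels went with their usual markers. In control libraries Cxcr6, a chemokine receptor of liver ILC1s, and Zfp683, which encodes the residency factor Hobit, were higher in liver ILC1s than in liver NK cells by fitted values of 13.30 and 8.39 on the log2 scale, and Eomes, a transcription factor of NK cells, was lower, with a log2 fold change of -5.42 (edgeR, adjusted p = 0.00426, 0.00426 and 0.0277). Some libraries stood apart. Gt(ROSA)26Sor, a noncoding RNA made at the Rosa26 locus, was at most at 1.11 CPM in RARa403 replicates 2 and 3 of every population, against 22.6 to 152 CPM across controls. RARa403 replicate 1, however, had 62.8 CPM in liver ILC1s and 56.4 CPM in spleen ILC1s. The libraries labelled RARa403 replicate 1 therefore did not show the loss of that transcript in ILC1s, and results were also computed with replicates 2 and 3 only. Liver NK RARa403 replicate 1 had 0 Gt(ROSA)26Sor counts and a mean correlation across genes of 0.633 with the other libraries of its group. Rara was at 431 CPM there, against 22.5 to 55.7 CPM in all other libraries. Gm13394 was at 75.4 to 112 CPM in RARa403 replicates 2 and 3 and at 4.94 to 8.72 CPM in controls. In RARa403 replicate 1 Gm13394 was at 2.96 CPM in liver ILC1s, 9.90 in spleen ILC1s and 13.7 in liver NK cells. Spleen ILC1 RARa403 replicate 1 had the lowest such correlation among ILC1 libraries, 0.777, and the most genes with a count, 19211. It also held 150.1 CPM of 8 hepatocyte genes, led by Apoa1, against 5.79 to 79.9 CPM in the other ILC1 libraries.

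The genes lie on 5 chromosomes of mm10. Il1r1 (chromosome 1, 40225080 to 40317257, plus strand) and Il1rl1 (chromosome 1, 40429570 to 40465415, plus strand) are near each other in the cluster of interleukin-1 receptor genes. Icos lies elsewhere on chromosome 1 (60977927 to 61000320, plus strand). Il23r occupies chromosome 6, 67422932 to 67491855, on the minus strand. Tmem176a (chromosome 6, 48840919 to 48847071, plus strand) and Tmem176b (chromosome 6, 48833818 to 48841496, minus strand) point away from each other and overlap at their 5′ ends. Their annotated exons share 81 bases on opposite strands. Whether counting used the strand is not stated, so reads in those bases cannot be assigned to either gene. The remaining members are Rora (chromosome 9, 68653786 to 69388246, plus strand), Ahr (chromosome 12, 35497974 to 35535038, minus strand) and Kit (chromosome 5, 75574916 to 75656722, plus strand), all protein coding like the rest.

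Because the altered receptor binds DNA as a nuclear receptor, promoter sequences of the 3 receptor genes with counts near the floor are shown, each the 250 bases before an annotated start (RefSeq, GRCm38.p6, the assembly called mm10), in lower case with motif matches in capitals. The motifs searched were AGGTCA, the core hexamer of nuclear receptor sites, and GCGTG, the core of sites for the aryl hydrocarbon receptor, on both strands, so that a match may read as TGACCT or CACGC. The motifs do not contain each other and were counted separately.
Il23r, chr6:67491856-67492105, minus strand: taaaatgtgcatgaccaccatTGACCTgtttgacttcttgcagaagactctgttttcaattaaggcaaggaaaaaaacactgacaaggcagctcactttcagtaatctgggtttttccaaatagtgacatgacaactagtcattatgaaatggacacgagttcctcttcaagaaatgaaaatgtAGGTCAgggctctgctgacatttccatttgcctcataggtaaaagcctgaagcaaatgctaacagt
Il1r1, chr1:40224830-40225079, plus strand: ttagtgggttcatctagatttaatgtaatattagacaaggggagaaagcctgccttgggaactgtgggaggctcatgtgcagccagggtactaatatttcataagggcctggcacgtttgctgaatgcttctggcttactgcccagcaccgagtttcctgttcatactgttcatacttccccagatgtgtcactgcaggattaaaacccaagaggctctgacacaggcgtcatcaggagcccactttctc
Il1rl1, chr1:40429320-40429569, plus strand: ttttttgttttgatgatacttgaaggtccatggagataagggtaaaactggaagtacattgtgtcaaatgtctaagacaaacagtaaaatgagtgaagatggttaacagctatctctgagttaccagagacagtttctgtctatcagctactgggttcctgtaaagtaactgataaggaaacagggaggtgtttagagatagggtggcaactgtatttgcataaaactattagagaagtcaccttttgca
The Il23r sequence held 2 AGGTCA matches, at positions -229 and -66 from the start, and no GCGTG match. The printed Il1r1 and Il1rl1 sequences held neither motif. Promoter windows were found for 7 of the 9 genes, 13 windows of 300 bases in all, not including Ahr and Icos. A second Il1rl1 window held AGGTCA at position -185 and GCGTG at -154. GCGTG matches were also present in the Rora window at -167, the first Kit window at -80, the first Il1r1 window at 42 and the second Il1r1 window at -125 and 16, and the windows of Tmem176a and Tmem176b held neither motif. Among 32851 promoter windows of the same length, 16.3% held AGGTCA and 32.4% held GCGTG, so matches of this kind are common.

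Without RARa403, the clearest pattern among the 9 genes was the separation of ILC1s from NK cells. Tmem176a and Tmem176b were higher in liver ILC1s than in liver NK cells of control mice, and higher in control spleen ILC1s than in the same NK cells. There were no spleen NK libraries, so spleen ILC1s and liver NK cells differ in organ as well as in cell type. Organ and cell type cannot be told apart in that comparison, which also shares its NK libraries with the liver comparison. Rora, Ahr, Kit and Icos were present in every library of both cell types, with higher means in ILC1s that did not pass the threshold. Il23r, Il1r1 and Il1rl1 were near or below the floor in most control libraries. Between liver ILC1s and liver NK cells of control mice, 2 of the 9 genes passed an adjusted p of 0.05, both higher in ILC1s, against 0.605% of all genes tested and 0.428% in the higher direction. Il1r1 had 0 counts in both of these groups. At an unadjusted p under 0.05 there were 7 members, against 7.91% of all genes. In control spleen ILC1s against control liver NK cells, 2 of 9 passed, the same pair, against 0.313% of all genes and 0.292% in the higher direction, and 6 had an unadjusted p under 0.05, against 7.07%. The groups did not overlap for 5 of 9 genes in the liver comparison, where 8.71% of all genes were higher without overlap, and for 6 of 9 in the spleen comparison, where 8.99% were.

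**Figure D1:**
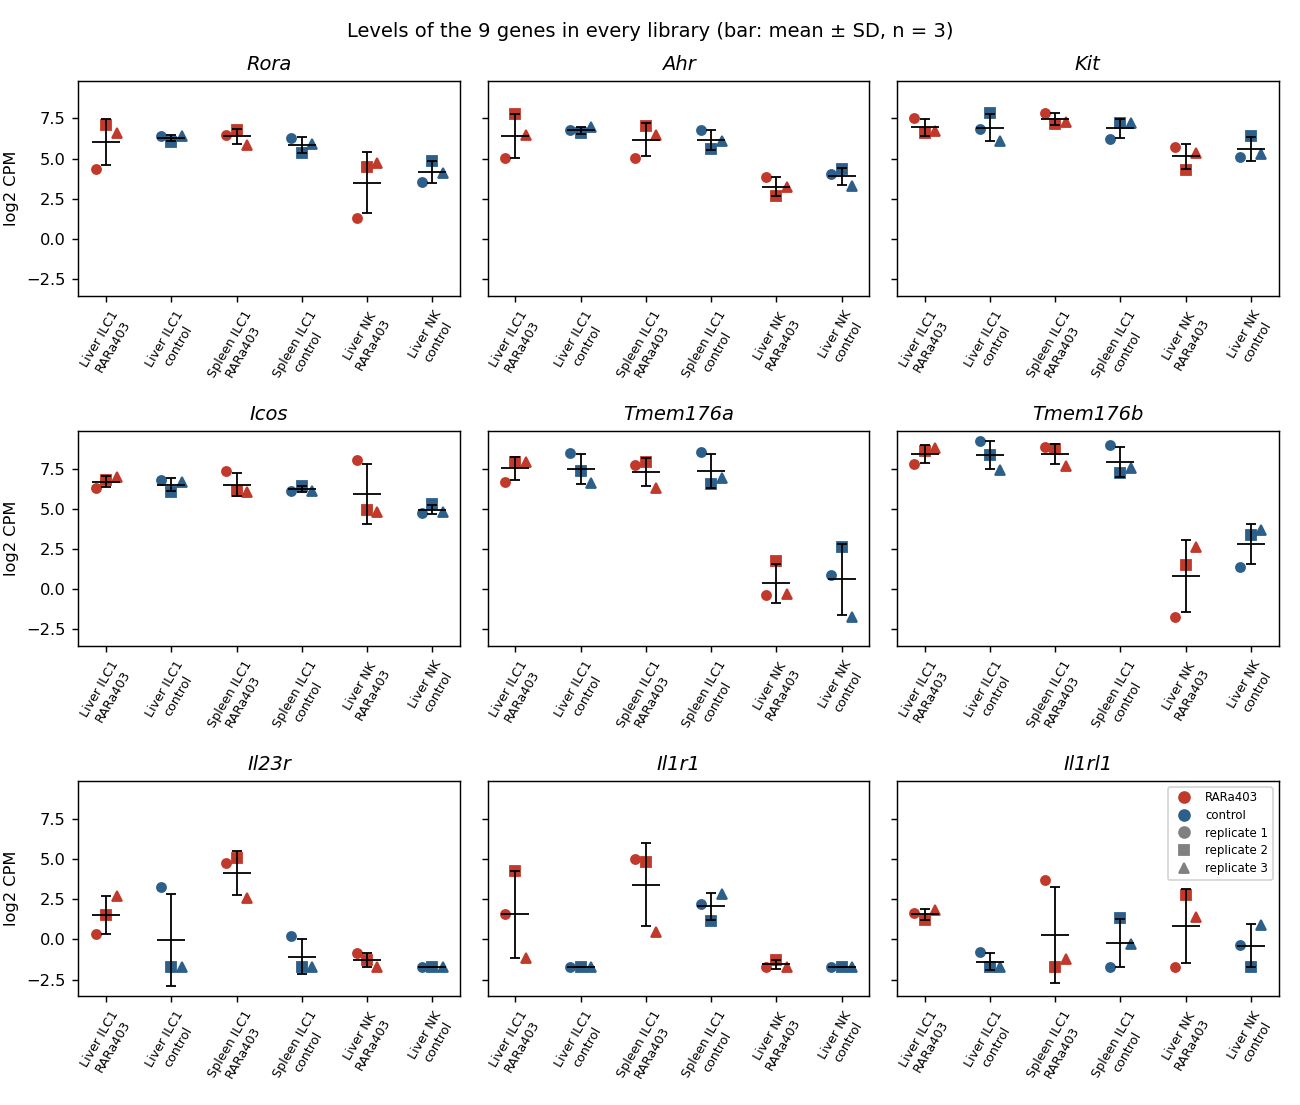
Level of each gene (log2 CPM, vertical axis) in the 18 libraries, by group (horizontal axis), with red for RARa403, blue for control, a marker shape for each replicate and black bars for the mean ± SD of 3 libraries. Tmem176a and Tmem176b lie above 6 log2 CPM in all ILC1 libraries and below 4 in all NK libraries, and 0 counts plot at -1.71.

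Tmem176b was the most abundant of the 9 genes per length in ILC1s, at 117 to 153 RPKM (CPM per kilobase of exon) as group means, against 1.18 RPKM in RARa403 NK cells and 3.46 RPKM in control NK cells. It had 1396, 2612 and 3129 counts in liver ILC1 RARa403 libraries 1, 2 and 3, against 4327, 1145 and 795 in liver ILC1 control libraries. Spleen ILC1 libraries had 2904, 2585 and 1556 counts with RARa403 and 4095, 1089 and 1059 in control. Every ILC1 library was far above the NK libraries, which had 0, 23 and 35 counts with RARa403 and 15, 89 and 70 in control. In control libraries the log2 fold change of Tmem176b was 5.47 ± 0.93 in liver ILC1s over liver NK cells (SE, edgeR, adjusted p = 0.0123) and 5.07 ± 0.91 in spleen ILC1s over liver NK cells (adjusted p = 0.023).

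Tmem176a followed the same division. It had 659, 1612 and 1728 counts in liver ILC1 RARa403 libraries and 2587, 571 and 438 in liver ILC1 control libraries, and 1347, 1462 and 592 in spleen ILC1 RARa403 libraries and 3125, 687 and 684 in spleen ILC1 control libraries. NK libraries had 2, 28 and 3 counts with RARa403 and 10, 53 and 0 in control. The ILC1 libraries held 438 to 3125 counts and the NK libraries 0 to 53, with no overlap. In control libraries its log2 fold change was 6.29 ± 1.12 in liver ILC1s over liver NK cells (SE, edgeR, adjusted p = 0.0156) and 6.25 ± 1.12 in spleen ILC1s over liver NK cells (adjusted p = 0.023). The log2 ratio of Tmem176a to Tmem176b averaged -1.01 over the 18 libraries, with an SD of 1.36. That spread includes NK libraries at or near 0 counts. Liver NK RARa403 replicate 1 had 2 counts of Tmem176a and 0 of Tmem176b, and liver NK control replicate 3 had 0 and 70. Both liver calls were lost without liver NK control replicate 1 (adjusted p = 0.107 for Tmem176a and 0.0812 for Tmem176b) and without replicate 3 (0.0657 and 0.0756). The Tmem176b call in the liver was also lost without liver NK control replicate 2 (adjusted p = 0.0691), and that of Tmem176a without liver ILC1 control replicate 1 (0.0542). Both spleen calls were lost without spleen ILC1 control replicate 1 (adjusted p = 0.0819 for Tmem176a and 0.0853 for Tmem176b) and without liver NK control replicate 1 (0.199 and 0.171) or 3 (0.074 and 0.115), and that of Tmem176b without liver NK control replicate 2 (0.125). The log2 fold changes stayed positive in all of these fits. With the recurring library code as a block, chosen after seeing the data, the liver call of Tmem176b (adjusted p = 0.0797) and both spleen calls (0.068 for Tmem176a and 0.175 for Tmem176b) were lost, and the log2 fold changes were 4.79 or more.

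Macrophages and dendritic cells also make both proteins, so their marker genes were read in the same libraries. The summed level of 14 myeloid genes ranged from 204 to 752 CPM in ILC1 libraries and from 127 to 334 CPM in NK libraries, and Itgax, at 520 to 2137 counts, was the most abundant of them in every library but spleen ILC1 control replicate 3, where Lyz2 was. The sum of 8 macrophage genes (Lyz2, Csf1r, Adgre1, C1qa, C1qb, C1qc, Clec4f and Marco) ranged from 0 to 474 CPM in ILC1 libraries and from 0 to 1.89 CPM in NK libraries. In liver ILC1 RARa403 libraries 1, 2 and 3 it was 2.65, 98.6 and 3.53 CPM, with 217, 391 and 442 CPM of Tmem176b. In liver ILC1 control libraries Tmem176b was at 590, 328 and 172 CPM beside macrophage sums of 281, 11.2 and 0 CPM. Replicate 3, with 0 counts over all 8 genes, had 438 counts of Tmem176a and 795 of Tmem176b. Spleen ILC1 control replicate 3, which had the highest macrophage sum, had 187 CPM of Tmem176b, against 495 CPM in spleen ILC1 control replicate 1, whose macrophage sum was 5.19 CPM. The part of macrophage transcripts in the levels of the Tmem176 genes was not tested.

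The transcription factors Rora and Ahr had higher means in ILC1s than in NK cells, with a spread that kept Rora and the control comparison of Ahr from passing the threshold. Ahr had 208, 1467 and 630 counts in liver ILC1 RARa403 libraries, against 792, 330 and 582 in liver ILC1 control libraries. Spleen ILC1 libraries had 215, 789 and 684 counts with RARa403 and 911, 351 and 391 in control, and liver NK libraries had 58, 55 and 54 with RARa403 and 104, 182 and 55 in control. All 12 ILC1 libraries were above all 6 NK libraries on the log2 CPM scale, with a lowest ILC1 value of 5.03 and a highest NK value of 4.36. In control libraries the log2 fold change of Ahr was 2.83 ± 0.64 in liver ILC1s over liver NK cells (SE, edgeR, adjusted p = 0.0639) and 2.29 in spleen ILC1s over liver NK cells (adjusted p = 0.246). Without liver NK RARa403 replicate 1, which shares the estimate of spread, the liver value had an adjusted p of 0.0202.

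Rora had 132, 917 and 691 counts in liver ILC1 RARa403 libraries, against 610, 229 and 386 in liver ILC1 control libraries. Spleen ILC1 libraries had 582, 680 and 441 counts with RARa403 and 644, 295 and 340 in control, and liver NK libraries had 9, 197 and 157 with RARa403 and 72, 257 and 98 in control. Control ILC1 libraries did not overlap control NK libraries, but liver ILC1 RARa403 replicate 1, at 4.38 log2 CPM, lay inside the NK range of 1.33 to 4.85. In control libraries the log2 fold change was 2.02 ± 0.72 in liver ILC1s over liver NK cells (SE, edgeR, adjusted p = 0.413) and 1.64 in spleen ILC1s over liver NK cells (adjusted p = 0.655). Rora shares 82 exon bases with Gm15511 on the opposite strand, and reads there cannot be told apart.

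Kit and Icos were the receptors present in all 18 libraries. Kit had 1192, 639 and 751 counts in liver ILC1 RARa403 libraries, against 851, 793 and 316 in liver ILC1 control libraries. Spleen ILC1 libraries had 1502, 885 and 1209 counts with RARa403 and 606, 1110 and 838 in control, and liver NK libraries had 217, 173 and 247 with RARa403 and 216, 776 and 218 in control. The 6 group means ran from 7.45 ± 0.36 log2 CPM in spleen ILC1 RARa403 libraries to 5.13 ± 0.75 in liver NK RARa403 libraries (SD, n = 3), and each group overlapped the next in that order. In control libraries Kit was at a log2 fold change of 1.38 ± 0.52 in liver ILC1s over liver NK cells (SE, edgeR, adjusted p = 0.461) and 1.23 in spleen ILC1s over liver NK cells (adjusted p = 0.633). Liver NK control replicate 2, with 776 counts, lay inside the ILC1 range.

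Icos had 498, 738 and 889 counts in liver ILC1 RARa403 libraries, against 816, 225 and 469 in liver ILC1 control libraries. Spleen ILC1 libraries had 1059, 425 and 504 counts with RARa403 and 564, 638 and 389 in control. In liver NK cells it had 1092, 273 and 162 counts with RARa403 and 173, 346 and 159 in control. Replicate 1 of the RARa403 NK libraries, the one that stood apart, was thus the highest of all 18 libraries at 8.06 log2 CPM, and the other 5 NK libraries lay between 4.77 and 5.28. Control ILC1s and control NK cells did not overlap for Icos, with log2 fold changes of 1.57 in the liver (edgeR, adjusted p = 0.596) and 1.26 for spleen ILC1s over liver NK cells (adjusted p = 0.769). Without liver NK RARa403 replicate 1, which shares the estimate of spread, the liver value had an adjusted p of 0.0256.

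**Figure D2:**
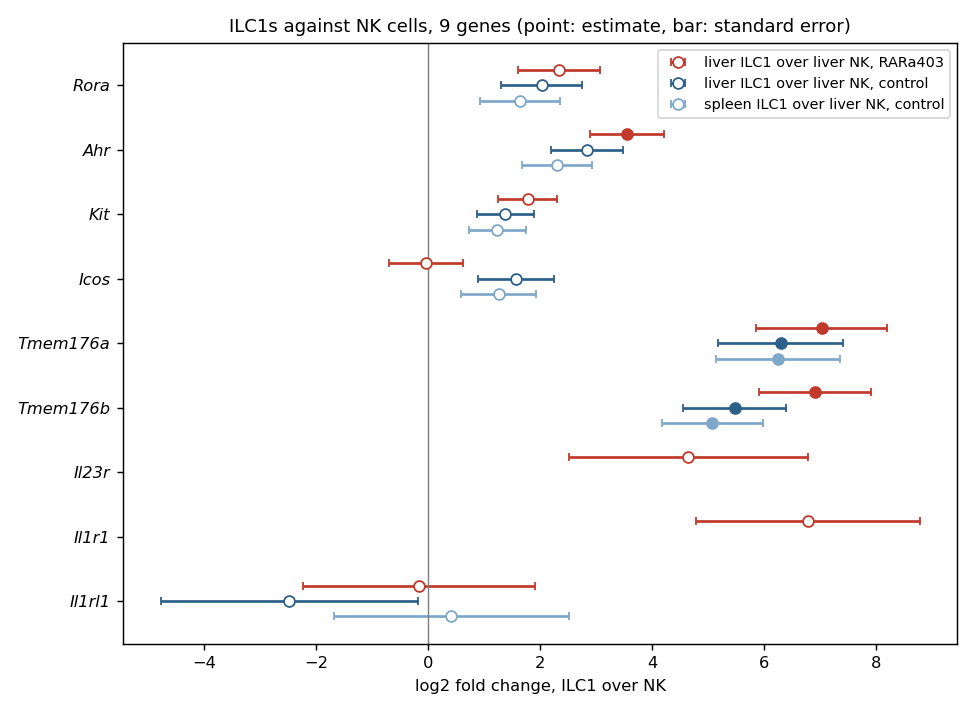
Log2 fold change of ILC1s over NK cells (horizontal axis) for each gene, with the standard error as bar, for liver ILC1s with RARa403, liver control ILC1s and spleen control ILC1s, each over the liver NK cells of the same genotype. Filled points passed an adjusted p of 0.05 (Tmem176a and Tmem176b in all 3 comparisons, Ahr in RARa403 libraries), open points did not, and a gene is left out where a group had 0 counts in all its libraries.

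The same comparison among RARa403 libraries was added after the data had been seen. Liver ILC1s with RARa403 exceeded liver NK cells with RARa403 in 3 of the 9 genes, against 0.401% of all genes tested and 0.347% in the higher direction. At an unadjusted p under 0.05 there were 7 members, against 12.3% of all genes, and 6 members were higher without overlap, against 7.58%. Of these, Il1r1 rests on 1 count in the lowest ILC1 and in the highest NK library. These were Tmem176a, with a log2 fold change of 7.03 ± 1.17 (SE, edgeR, adjusted p = 0.0124), Tmem176b, with 6.91 ± 1.00 (adjusted p = 0.00715), and Ahr, with 3.55 ± 0.67 (adjusted p = 0.0267). The Ahr call was lost without liver ILC1 RARa403 replicate 2 or 3 (adjusted p = 0.147 and 0.0615) and without liver NK RARa403 replicate 2 (0.0506), and with the library code as a block (0.182). All 3 calls were lost when only these 2 groups entered the fit (adjusted p = 0.634 each). The log2 fold change was 2.33 for Rora (adjusted p = 0.22) and 1.77 for Kit (adjusted p = 0.19). For Icos it was -0.05 with all libraries (adjusted p = 0.996), and 1.88 without liver NK RARa403 replicate 1 (adjusted p = 0.0489).

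Some T cell transcripts were also higher in ILC1 than in NK libraries, although both sorts excluded cells with surface CD3. The summed level of 12 T cell genes was 1436 to 2345 CPM in ILC1 libraries and 864 to 1791 CPM in NK libraries, which overlap. In the liver of control mice 2 of the 12 passed between the cell types, Cd3e and Trbc2, both higher, against 0.428% of all genes in that direction. Cd3e, a chain of the T cell receptor complex, had 31 to 769 counts in ILC1 libraries and 0 to 3 in NK libraries, with a log2 fold change of 6.93 in control liver ILC1s over NK cells (edgeR, adjusted p = 0.0264). Trbc2, a T cell receptor β constant gene, was higher by 1.85 on the log2 scale in the same comparison (adjusted p = 0.00413). Cd3g had 369 to 2763 counts in ILC1 libraries and 0 to 125 in NK libraries. Counts of Trdc, Trbc1 and Lat overlapped between ILC1 and NK libraries, and Trdc had 113 to 1557 counts in ILC1 libraries and 675 to 1473 in NK libraries. Some T cells express Rora, Ahr, Icos, Il23r and Tmem176b as well, and the part of such transcripts in the ILC1 levels was not tested. In a bulk library fewer cells of a type and less RNA per cell cannot be told apart.

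Between organs, none of the 9 genes passed the threshold in control spleen ILC1s against control liver ILC1s (edgeR, 0% of all genes tested passed, and 3.18% had an unadjusted p under 0.05). Il1r1 was the member with an unadjusted p under 0.05, at 36, 14 and 38 counts in spleen ILC1 control libraries against 0, 0 and 0 in liver ILC1 control libraries. Set against the floor of 3 counts per library, its level was at least 6.75-fold higher in the spleen (unadjusted p = 0.0048, adjusted p = 1), and the groups did not overlap, as for 4.82% of all genes in the higher direction. B cell and myeloid genes were read in the same comparison. All 8 B cell genes were on the higher side in the spleen, with a median log2 fold change of 5.55, against 0.026 over all genes. So were 10 of 12 myeloid genes, with a median of 1.44, and 0 of either list passed (edgeR). The B cell sum was 337, 737 and 3054 CPM in spleen ILC1 control libraries 1, 2 and 3, against 417, 482 and 792 CPM in liver ILC1 control libraries. Among these control libraries, spleen replicate 3 had the highest B cell sum and 38 Il1r1 counts, and spleen replicate 1 had the lowest B cell sum and 36. The part of other cells in these counts was not tested. The log2 fold changes of the 6 abundant genes lay between -0.54 for Ahr and -0.05 for Tmem176a.

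RARa403 was then compared with control within each ILC1 population. None of the 9 genes passed the threshold in liver ILC1s, in spleen ILC1s or in the mean of the 2 effects, and the same was true of every gene tested (0% in each comparison by edgeR). At an unadjusted p under 0.05 there was 1 member in liver ILC1s, against 2.94% of all genes, 1 in spleen ILC1s, against 2.89%, and 2 in the mean effect, against 4.08%. These members were Il1r1 in the liver, Il23r in the spleen, and both in the mean. The mean effect takes liver and spleen libraries as independent, although library codes recur in both organs. If a code marks a mouse, the p-values of the mean effect may be too small. Each code occurs in 1 genotype, so a block for the code could not be fitted to RARa403 against control. DESeq2, run as an alternative, passed 0 of the 9 genes in each of these comparisons, in liver NK cells, between organs and in the differences between effects. The groups did not overlap for Il1r1 and Il1rl1 in the liver, both higher with RARa403, where 5.08% of all genes were higher without overlap, and for Il23r in the spleen, where 4.12% were. The median log2 fold change of the 9 genes in the mean effect was 0.30, against -0.004 over all genes tested, and 8 of the 9 were positive.

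The 6 genes that all ILC1 libraries expressed had mean effects near 0 with wide intervals. The log2 fold change of RARa403 over control, averaged over liver and spleen ILC1s, was 0.34 for Rora, with a 95% interval from -0.70 to 1.38. For Ahr it was 0.10, with an interval from -0.79 to 0.99. For the stem cell factor receptor Kit it was 0.22 (-0.54 to 0.97), and for the costimulatory receptor Icos 0.30 (-0.69 to 1.28). The effect was -0.12 for Tmem176a (-1.43 to 1.20) and 0.16 for Tmem176b (-0.98 to 1.30). Changes up to these bounds lie within the intervals. With replicates 2 and 3 only, 0 of the 9 genes passed in either population or in the mean, and the mean effects of the 6 lay between -0.27 for Kit and 0.81 for Tmem176b. By population, the largest of these effects were 0.54 for Rora and 0.52 for Kit, both in spleen ILC1s (edgeR, adjusted p = 1 each), and the 6 effects in liver ILC1s lay between -0.09 for Kit and 0.18 for Icos.

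Liver ILC1 RARa403 libraries differed among themselves in the transcription factors. Replicate 1 had the lowest Rora and Ahr levels of the 12 ILC1 libraries, at 4.38 and 5.03 log2 CPM, and replicate 2 had the highest, at 7.11 and 7.78. The SD of this group was 1.45 log2 CPM for Rora and 1.38 for Ahr, against 0.20 and 0.21 in liver ILC1 control libraries.

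**Figure D3:**
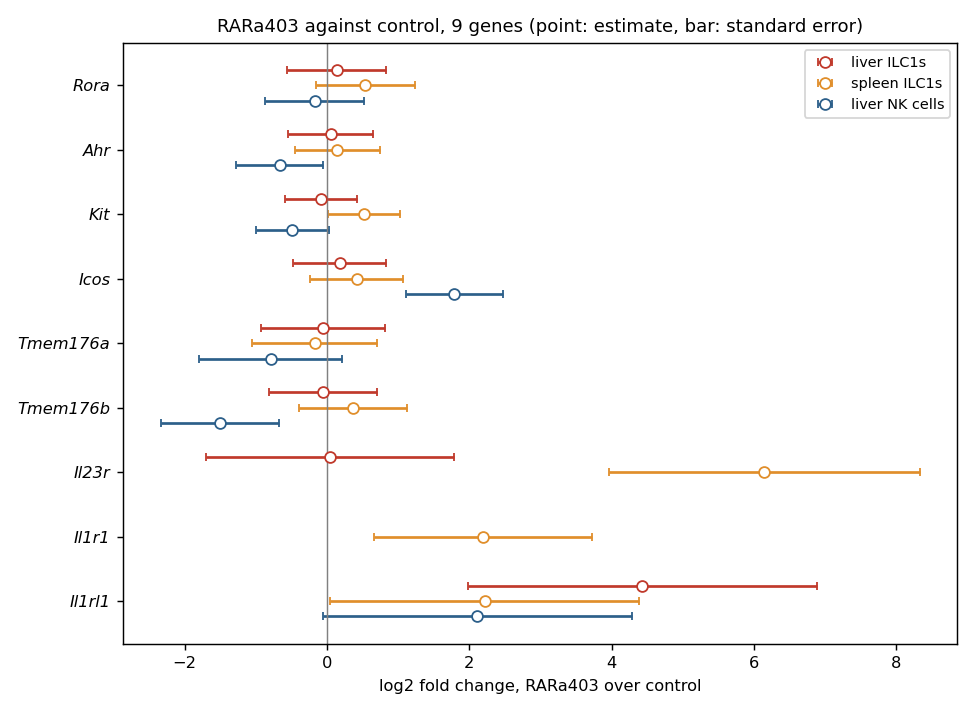
Log2 fold change of RARa403 over control (horizontal axis) for each gene, with the standard error as bar, in liver ILC1s, spleen ILC1s and liver NK cells. All points are open because no gene passed an adjusted p of 0.05. Rora, Ahr, Kit, Icos, Tmem176a and Tmem176b lie between -0.17 and 0.54 in ILC1s, and a gene is left out where a group had 0 counts in all its libraries.

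Il23r, the interleukin-23 receptor gene of ILC3s, was found above the floor in all 6 RARa403 ILC1 libraries, in 2 of 6 control ILC1 libraries and in 0 of 6 NK libraries. It had 6, 17 and 44 counts in liver ILC1 RARa403 libraries, against 68, 0 and 0 in liver ILC1 control libraries. Spleen ILC1 RARa403 libraries had 175, 204 and 43 counts, against 7, 0 and 0 in spleen ILC1 control libraries. The spleen groups did not overlap, whereas in the liver the highest library was a control. The log2 fold change of RARa403 over control was 6.14 ± 2.19 in spleen ILC1s (SE, edgeR, unadjusted p = 0.0138, adjusted p = 1) and 0.04 ± 1.75 in liver ILC1s (adjusted p = 1). In the mean of both it was 3.09 ± 1.34 (unadjusted p = 0.037, adjusted p = 1).

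Per length of exon, the group mean of Il23r reached that of Rora in spleen ILC1s with RARa403 and lay below it in the other groups. Among the spleen ILC1 RARa403 libraries, Il23r was above Rora in replicates 1 and 2. In replicate 3 it was below, at 2.24 RPKM against 4.38 RPKM for Rora. As a group mean Il23r came to 8.85 RPKM in spleen ILC1 RARa403 libraries and 1.30 RPKM in liver ILC1 RARa403 libraries, against 0.113 RPKM in spleen ILC1 control libraries and 1.24 RPKM in liver ILC1 control libraries. Rora stood at 6.60 and 6.52 RPKM in spleen and liver ILC1s with RARa403, against 4.54 and 5.93 RPKM in spleen and liver ILC1 control libraries. The liver ILC1 control mean of Il23r came from replicate 1 alone. With replicates 2 and 3 only, the control libraries had 0 Il23r counts in both organs and the mean effect had an adjusted p of 0.405. The summed level of the T cell genes was 1441 to 1733 CPM in spleen ILC1 RARa403 libraries and 1436 to 2013 CPM in spleen ILC1 control libraries. Trbc1, with 2808 to 5293 counts in NK libraries too, was the most abundant of these genes in every library. The sum therefore cannot show whether a few T cells were present, and the part of T cell transcripts in the Il23r counts was not tested.

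**Figure D4:**
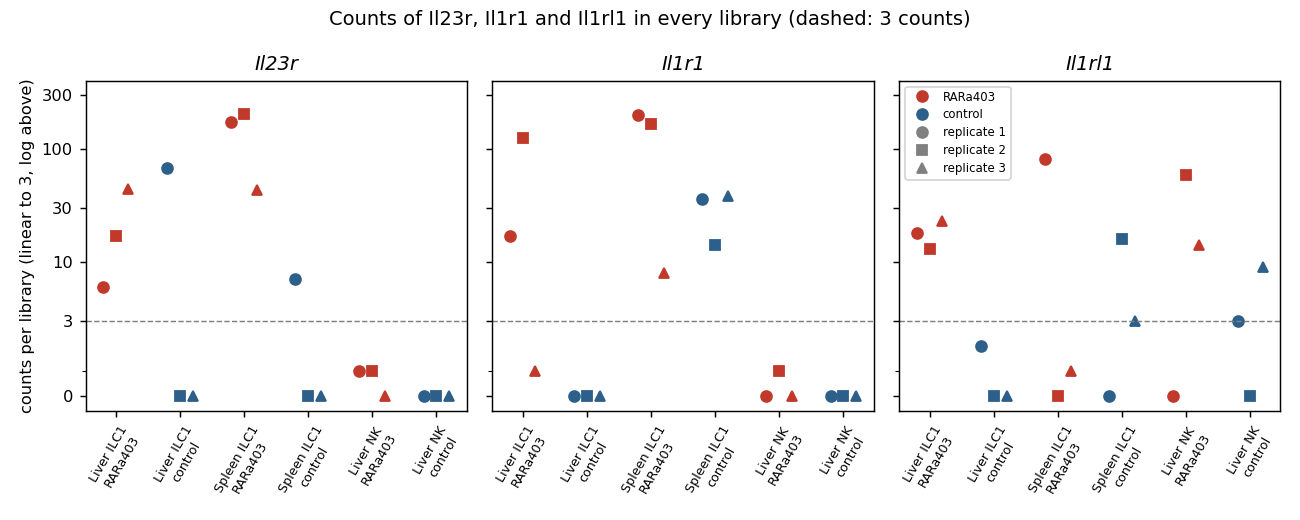
Counts per library (vertical axis, linear up to 3 and logarithmic above) of Il23r, Il1r1 and Il1rl1 by group (horizontal axis), with red for RARa403, blue for control, a marker shape for each replicate and a dashed line at 3 counts. Il23r lies above the line in 6 of 6 RARa403 and 2 of 6 control ILC1 libraries, Il1r1 in 5 and 3, and Il1rl1 in 4 and 1, and Il1rl1 alone of the 3 genes lies above it in NK libraries, in 3 of 6.

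Il1r1, the signalling receptor for interleukin-1, was above the floor in 5 of 6 RARa403 ILC1 libraries, 3 of 6 control ILC1 libraries and 0 of 6 NK libraries. It had 17, 125 and 1 counts in liver ILC1 RARa403 libraries, against 0, 0 and 0 in liver ILC1 control libraries. Spleen ILC1 RARa403 libraries had 200, 167 and 8 counts, against 36, 14 and 38 in spleen ILC1 control libraries. The liver groups were apart by a margin of 1 count, and the spleen groups overlapped because replicate 3 had fewer counts with RARa403 than each control library. Set against the floor, the level in liver ILC1s was at least 11.2-fold higher with RARa403 than in control (edgeR, unadjusted p = 0.003, adjusted p = 1). That bound rests on replicate 2, without which it was 2.18-fold, and replicate 3 was itself under the floor. In spleen ILC1s the log2 fold change was 2.19 ± 1.54 (SE, adjusted p = 1). Against liver NK control libraries, which had 0 counts each, the level in spleen ILC1 control libraries was at least 9.75-fold higher (edgeR, adjusted p = 0.299).

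The mean effect of RARa403 on Il1r1 had the smallest unadjusted p of the 9 genes, 0.00215, with an adjusted p of 1. Its fitted log2 fold change of 5.37 depends on how the fit treats the 0 counts of liver control libraries and is no bound. With no filter on low counts the same effect had an adjusted p of 0.0459, the sole RARa403 call among the 9 genes in ILC1s under any setting tried. Over the fits that left out each library in turn its adjusted p was 0.45 to 1, and with DESeq2 it was 0.0687. Liver ILC1 RARa403 replicate 2 held 125 of the 143 counts of its group. Macrophage genes, whose cells can also express Il1r1, summed to 98.6 CPM in that library and to 2.65 CPM in replicate 1. They summed to 281 CPM in liver ILC1 control replicate 1, which had 0 Il1r1 counts. In spleen ILC1 control replicate 3, which had 38 Il1r1 counts, they summed to 474 CPM. The part of macrophages and of other cells in the Il1r1 counts was not tested.

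Il1rl1, the interleukin-33 receptor gene that marks ILC2s, was scattered over all 3 populations. It had 18, 13 and 23 counts in liver ILC1 RARa403 libraries, against 2, 0 and 0 in liver ILC1 control libraries, which did not overlap. Spleen ILC1 RARa403 libraries had 82, 0 and 1 counts, against 0, 16 and 3 in spleen ILC1 control libraries. Liver NK RARa403 libraries had 0, 59 and 14 counts, against 3, 0 and 9 in liver NK control libraries. It was above the floor in 4 of 6 RARa403 ILC1, 1 of 6 control ILC1 and 3 of 6 NK libraries, so its counts were not limited to ILC1s. The log2 fold change was 4.43 ± 2.45 in liver ILC1s (SE, edgeR, unadjusted p = 0.0889, adjusted p = 1) and 2.22 ± 2.17 in spleen ILC1s (adjusted p = 1), where replicate 1 held 82 of the 83 RARa403 counts. With replicates 2 and 3 only, the spleen value was -3.98. Marker genes of mast cells and basophils, which also carry ST2, were read as well. Of 10 such genes, 3 had 0 counts in every ILC1 library, and the sum was 2.94 to 47.8 CPM in ILC1 libraries. Cpa3 had 1 to 90 counts in ILC1 libraries, where Il1rl1 had 0 to 82. In NK libraries the sum was 9.53 to 464 CPM, and Cma1 had 35 to 2612 counts there. The part of such cells in the Il1rl1 counts was not tested.

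Genes that define the other innate lymphoid cells were read as further lists. Of 26 further ILC2 genes, 13 were tested, and of 25 further ILC3 genes, 21 were tested. In liver ILC1s, spleen ILC1s and the mean effect, 0 of the 13 and 0 of the 21 passed the threshold, as did 0% of all genes, so these counts say nothing particular about the lists. Their median log2 fold changes in the mean effect were 0.06 and 0.09, against -0.004 over all genes. GATA3 drives ILC2s but is also needed by other lymphocytes, and Gata3 was found in every library, at 814 to 1710 counts in ILC1s and 201 to 1559 in NK cells. Its mean effect was 0.06 ± 0.24 on the log2 scale (SE, edgeR, adjusted p = 1). Itgb7, Ltb and Gpr183 were compared in the same way and had mean effects of 0.08, -0.16 and 0.82 (adjusted p = 1 each).

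The cytokine genes Il13, Il5, Il22 and Il17a of ILC2s and ILC3s were at or under the floor in most libraries. Csf2, a cytokine gene of the further ILC2 list, was above it in every ILC1 library. It had 19 to 88 counts in liver ILC1 RARa403 libraries against 30 to 222 in control, and in the spleen 38 to 61 against 42 to 114. Il4 had 5 to 13 counts in liver ILC1 RARa403 libraries against 0 to 21 in control, and in the spleen 0 to 7 against 0 to 13. Il13 had 0 counts in all 18 libraries. Il5 had 14, 0 and 0 counts in liver ILC1 RARa403 libraries against 0, 1 and 0 in control, and 7, 0 and 8 in spleen ILC1 RARa403 libraries against 13, 3 and 0 in control. Il22 had 61 counts in spleen ILC1 RARa403 replicate 1 and 42 in liver ILC1 control replicate 1, and at most 1 elsewhere. Il17a had 36 counts in spleen ILC1 RARa403 replicate 1 and at most 1 elsewhere. Spleen ILC1 RARa403 replicate 1 thus held Il22, Il17a, Il23r and Il1rl1 together. It is the library with Gt(ROSA)26Sor at the control level, the hepatocyte transcripts and the low correlation with its group described above, and their part in these counts was not tested. Liver ILC1 control replicate 1 held Il22 and Il23r together.

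Between cell types, some of these genes did pass. Among control libraries, Ccr8, a chemokine receptor of ILC2s and some T cells, was higher in liver ILC1s than in liver NK cells by 9.36 (fitted log2 fold change, edgeR, adjusted p = 0.0147, with 0 counts in each control NK library and 16 to 101 in control liver ILC1 libraries). Ltb, which encodes lymphotoxin β, was higher by 2.56 (adjusted p = 0.0136), and Gpr183, an oxysterol receptor that guides ILC3s, by 3.69 (adjusted p = 0.0211). So 1 of 13 further ILC2 genes and 2 of 21 further ILC3 genes passed, all higher, against 0.605% of all genes and 0.428% in the higher direction. In control spleen ILC1s against control liver NK cells, where organ and cell type cannot be told apart, the same 3 genes passed. Of all genes, 0.313% passed there, and 0.292% in the higher direction. The log2 fold changes were 8.63 for Ccr8 (edgeR, adjusted p = 0.0274), 2.49 for Ltb (0.0221) and 4.71 for Gpr183 (0.009). Among RARa403 libraries, Ccr8 (7.88, adjusted p = 0.0234) and Itgb7, an integrin chain of gut homing (1.64, adjusted p = 0.00715), were higher in liver ILC1s than in liver NK cells. They were 1 of 13 and 1 of 21 genes, against 0.401% of all genes and 0.347% in the higher direction.

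The genes that work with the 9 receptors and factors were also read. Of 28 signalling partners, 24 were tested and 0 passed between genotypes in any population, where 0% of all genes passed, and 1 passed between liver ILC1s and liver NK cells of control mice, where 0.605% did. That was Il18rap, a chain of the interleukin-18 receptor, which was lower in liver ILC1s, with a log2 fold change of -1.54 (edgeR, adjusted p = 0.0401). Il1rap, the accessory chain that both Il1r1 and ST2 need, had 78, 130 and 131 counts in liver ILC1 RARa403 libraries against 149, 37 and 122 in control, and 43, 226 and 134 in spleen ILC1 RARa403 libraries against 190, 115 and 70 in control. Its mean effect was 0.03 ± 0.74 (SE, edgeR, adjusted p = 1). Of 11 genes of the aryl hydrocarbon receptor's machinery and targets, 6 were tested and 0 passed in any comparison. Cyp1a1, its classical target, had at most 1 count in each library, and Arnt, its partner, had 200 to 556 counts in ILC1 libraries. Of 15 Ms4a genes, whose proteins resemble the TMEM176 pair, 9 were tested and 0 passed in any comparison. With 0% of all genes passing between genotypes and 0.313% to 0.605% between ILC1s and NK cells, the zeros of both lists are at the background.

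In liver NK cells none of the 9 genes passed between RARa403 and control (edgeR, 0% of all genes passed, and 9.64% had an unadjusted p under 0.05). Icos was the member with an unadjusted p under 0.05, at 0.0178, with a log2 fold change of 1.79 ± 0.68 (SE, adjusted p = 0.431). With replicates 2 and 3 only its log2 fold change was -0.23. With no filter on low counts Icos and Tmem176b had adjusted p of 0.0237 and 0.0461 in this comparison. Tmem176b had a log2 fold change of -1.50 ± 0.83 with the filter (adjusted p = 0.583), and Rora, Ahr and Kit lay between -0.67 and -0.17. No group pair was without overlap for any member, against 3.77% of all genes higher without overlap.

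The difference between effects was tested directly. For RARa403 in liver ILC1s minus RARa403 in liver NK cells, the difference for Il1r1, with 0 counts in both control groups, could not be fitted by edgeR, and of the other 8 genes 0 passed (0% of all genes) and 0 had an unadjusted p under 0.05, against 6.2% of all genes. DESeq2 gave Il1r1 a difference of 6.38 ± 3.11 (SE, adjusted p = 0.683). For spleen minus liver ILC1s, 0 of 9 passed (0% of all genes), and 2 had an unadjusted p under 0.05, against 2.7%. These were Il23r, with a difference of 6.10 ± 2.68 on the log2 scale, and Il1r1, with a fitted difference of -6.36 ± 2.58 that depends on the 0 counts of liver control libraries (SE, adjusted p = 1 each). An effect of RARa403 that differs between organs or cell types was therefore not shown for any of the 9 genes whose difference could be fitted.

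Genes of similar pattern were sought over the 18 libraries by the root mean square (RMS) difference of log2 CPM after centring each gene on its own mean. Tmem176b was most like Tcrg-C4, a T cell receptor γ constant gene (RMS difference 0.812, against an SD of 3.35 for Tmem176b itself), then Sgms1 and Inpp4b. Tmem176a was most like Gpr34 (0.958, SD 3.52), then Cd200r1 and Tcrg-C4. The 2 Tmem176 genes differed from each other by 1.32, with the NK libraries near the floor included. Rora was most like Itm2c (0.536, SD 1.45), then Ralgds and Cited4, and Ahr was most like Lpar6 (0.634, SD 1.55), then Itgb3 and Adgrg5. Kit was most like Slc11a2 (0.557, SD 1.02), then the costimulatory receptor gene Cd28 and Ly6e, and Icos was most like Degs2 (0.393, SD 0.934), then Ipcef1 and Acvr2a. The low genes had no close match: the nearest were Ncoa7, Jaml and Capg for Il23r (1.65 for the first, SD 2.42), Tnfrsf13c, Ramp1 and Xlr4a for Il1r1 (1.76, SD 2.50), and Nfia, Wdhd1 and Kif16b for Il1rl1 (1.36, SD 1.76). These distances describe libraries that share cell types and are no test.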

How the data were processed

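Per the labels' protocols, a SMART-seq kit made cDNA from all RNA of 200 sorted cells. Per the submitters' processing notes the tools were fastp 0.23.0, HISAT2 2.1.0 and featureCounts of Subread 1.6.5, with mm10. Annotation release, strand setting and handling of multi-mapped reads are not stated. The deposited table holds raw gene counts made by the authors, with 0 columns left over. The 9 genes, the further lists and the tests were chosen with earlier results of these data known.

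Genes were kept by filterByExpr (minimum count 10), scaled by TMM and tested with edgeR 4.0.16 in R 4.3.3, in 1 quasi-likelihood model of 18 libraries with a mean per group. The common biological coefficient of variation was 0.862. P-values were adjusted over 14714 genes per comparison (Benjamini-Hochberg, threshold 0.05). Log2 CPM use a prior count of 2, and RPKM use GENCODE exon lengths. Replicate numbers were not taken as pairs. The steps were tested on simulated data. Alternatives were DESeq2 1.42.0, RLE factors, no filter, only the groups compared, a replicate block, replicates 2 and 3 only, and each library left out. The comparison of RARa403 liver ILC1s with RARa403 NK cells was chosen after seeing the data, as were fits with the recurring library code as a block and with its leading digit (1 or 2) as a term.

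All 9 genes are named, with the 3 genes most similar to each among genes whose mean is 3 log2 CPM or more, and up to 4 called genes of each further list. Other genes named were chosen after their values were seen. A gene of the further lists is not reported here.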

Additional observations from a re-analysis of the deposited data

How the results depend on the processing

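Counts at or below the floor of 3 cannot be read as absence. DESeq2 passed 4 of the 9 genes in control spleen ILC1s against control liver NK cells (2 by edgeR) and 6 in RARa403 liver ILC1s against RARa403 liver NK cells (3 by edgeR). With no filter on low counts 1 gene passed in the mean RARa403 effect on ILC1s, 2 in liver NK cells with RARa403, 4 in control liver ILC1s and 4 in control spleen ILC1s against NK cells, and 6 in RARa403 liver ILC1s against NK cells. With only the groups compared these were 5 in control liver ILC1s and 0 in RARa403 liver ILC1s against NK cells. With replicates 2 and 3 only they were 1 in control spleen ILC1s and 5 in RARa403 liver ILC1s against NK cells. The replicate block left 1 gene in control spleen ILC1s against NK cells, and the adjusted p of Tmem176b became 0.0711 there and that of Ahr 0.079 among RARa403 libraries. No other call among the 9 genes was lost with the block. Whether a number or code marks shared mice is not stated. Correlations of deviations from the group means were -0.033 to 0.245 over 9 same-numbered pairs of genotypes, 1 of them over 0.1, and 0.016 to 0.124 over 18 same-numbered pairs of populations, 3 over 0.1. As a hint from the data, the own number gave the highest correlation in 35 of 36 cases between populations and in 8 of 18 between genotypes. With the library code as a block, 1 gene passed in control liver ILC1s, 0 in control spleen ILC1s and 2 in RARa403 liver ILC1s against NK cells (29, 13 and 16 of all genes). That block could not be fitted to RARa403 against control in any population or in the mean. The leading digit of the code as a term changed no count of members, and replicates 2 and 3 only are the libraries whose code begins with 2, those with 1 being a single library a group. Leaving out each library in turn gave 0 to 4 of the 9 genes in control liver ILC1s, 0 to 2 in control spleen ILC1s and 2 to 4 in RARa403 liver ILC1s against NK cells, and 0 in the other comparisons. Icos in RARa403 liver ILC1s against NK cells turned to 2.03 with replicates 2 and 3 only (adjusted p = 0.0107) and ranged from -0.50 to 1.88 over the fits that left out a library, the last without liver NK RARa403 replicate 1. The cause of these changes was not tested, apart from the smaller number of libraries or genes that each setting has by construction.

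Counts of all genes also moved. For RARa403 against control, where edgeR called 0 genes in each comparison, DESeq2 called 33 in liver ILC1s, 20 in spleen ILC1s, 42 in their mean and 153 in liver NK cells, and 43 and 18 for the differences of effects (liver ILC1 minus NK, and spleen minus liver ILC1). With no filter edgeR called 43, 32, 77, 523, 268 and 41 in the same order, and with replicates 2 and 3 only 1, 1, 5, 2, 0 and 0. For control liver ILC1s against NK cells 89 genes were called, against 419 by DESeq2, 355 with no filter, 343 with only the groups compared and 221 with replicates 2 and 3 only. For control spleen ILC1s 46 were called, against 312, 316, 92 and 55 in that order and 25 with the replicate block. For RARa403 liver ILC1s 59 were called, against 554, 794, 0 and 162, and 34 with the block. For control spleen against liver ILC1s 0 were called, against 26 by DESeq2 and 78 with no filter. Leaving out each library gave 18 to 290, 7 to 154 and 18 to 254 genes in the 3 comparisons with NK cells, and at most 3 in the others. RLE factors changed no count of members.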

Other observations

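Some genes of the further lists had small unadjusted p-values in the mean effect of RARa403 on ILC1s without passing the threshold, and they were chosen after their values were seen. The p-values of this effect take liver and spleen libraries as independent. Il18r1, a chain of the interleukin-18 receptor in the same gene cluster as Il1r1 and Il1rl1, had 3683, 2003 and 2509 counts in liver ILC1 RARa403 libraries, against 1339, 544 and 434 in control. In spleen ILC1s it had 2648, 2313 and 3376 counts with RARa403, against 1272, 1941 and 1032 in control. All 6 RARa403 ILC1 libraries were above all 6 control ILC1 libraries on the log2 CPM scale. The share of all genes separated in this way was not counted, so the separation says nothing particular about Il18r1. Its log2 fold change was 1.27 ± 0.26 (SE, edgeR, unadjusted p = 0.000182, adjusted p = 0.919). Tcf7, which encodes a transcription factor of lymphoid progenitors, had a log2 fold change of 0.92 ± 0.33 in the same effect (unadjusted p = 0.0126, adjusted p = 1).

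Gfi1, a repressor that ILC2s need, had 20, 75 and 39 counts in spleen ILC1 RARa403 libraries, against 209, 217 and 306 in spleen ILC1 control libraries, with no overlap (log2 fold change -2.41 ± 0.66, SE, edgeR, unadjusted p = 0.00208, adjusted p = 1). The share of all genes lower without overlap is not given here, so this separation says nothing particular about Gfi1. In liver ILC1s it had 110, 285 and 214 counts with RARa403, against 208, 103 and 265 in control. Ccr8 had 493, 178 and 307 counts in spleen ILC1 RARa403 libraries, against 146, 11 and 20 in control (log2 fold change 2.67 ± 0.98, unadjusted p = 0.0163, adjusted p = 1).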
